A study of Arabidopsis thaliana with 10 samples.

Results

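The genes described here rose in triploid seeds of *Arabidopsis thaliana* and were lower again in triploid seeds that carried the *adm-2* or the *suvh7-1* mutation from the father. They were chosen from measured values. With the mean RPKM (read number per kilobase of a gene, relative to the mapped reads of its library) of the 2 libraries of a group plus 0.1, a member had at least 1.1 in triploid seeds, at least 4 times the value of diploid seeds, and at most 0.5 times the value of triploid seeds in both mutants. Of the 33602 genes of the table, 1035 met the first 2 conditions and 165 met them all. All crosses had wild-type L*er* mothers, which were emasculated and pollinated by hand. Diploid seeds had a wild-type Col father and triploid seeds an *osd1* father, whose unreduced pollen brings an additional paternal genome. In the other groups the *osd1* father also carried *adm-2*, *suvh7-1* or *peg2*, so that every triploid group carries *osd1* and only the paternal copies are mutated. The *osd1* allele was moved from Nossen into Col by backcrossing, and *suvh7-1* and *peg2* are T-DNA insertions, with 1 line for each gene. Each of the 10 libraries, 2 per group, came from whole seeds of 20 siliques harvested at 6 days after pollination (DAP).

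The endosperm is the nutritive tissue of the seed. It first divides as a syncytium and later forms cell walls, and in seeds with an excess of paternal genomes this cellularization fails and the seed aborts, which is called the triploid block. *ADM*, *SUVH7* and *PEG2* are paternally expressed imprinted genes (*PEGs*), transcribed in the endosperm mainly from the father's copy, and the comparisons made here ask how their loss in triploid seeds changes the genes that the extra paternal genome raised. Many secreted cysteine-rich peptides (CRPs) of plants serve as signals between pollen tube, ovule, endosperm and embryo, and enzymes that act on pectin soften or stiffen cell walls. Because whole seeds were used, fewer cells of a type and less RNA per cell cannot be told apart.

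The mutated genes were low in the groups that carry the mutation. For *OSD1* the only group without the mutation is the diploid one. Allele and ploidy change together there, and their parts were not tested. *OSD1* was at an RPKM of 8.83 and 7.02 in diploid, 1.91 and 1.38 in triploid, 3.35 and 2.94 in triploid *adm-2*, 2.57 and 3.03 in triploid *suvh7-1* and 0.864 and 1.67 in triploid *peg2* seeds. *ADM* lay at 0.251 and 0.237 in triploid *adm-2* against 2.42 and 4.01 in triploid seeds, *SUVH7* at 0.640 and 0.956 in *suvh7-1* against 3.09 and 3.16, and *PEG2* at 0.238 and 0.0808 in *peg2* against 3.54 and 4.10. *ADM* and *PEG2* are themselves members. Relative sequencing depth, estimated from the spacing of the lowest values, was 0.881 to 1.16 and was lowest in replicate 1 of triploid seeds. Ribosomal RNA genes made up 9.29% to 17.4% of the summed RPKM, with the highest share in that same library.

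The 2 libraries of triploid seeds differed over the members in a structured way, which bears on every ratio given below. Of the 165 members, 130 were higher in replicate 2, as were 14318 of the 18383 genes whose RPKM averaged 1 or more, and the median ratio of replicate 1 to replicate 2 was 0.793. In contrast, 23 members were at least 1.5 times higher in replicate 1, up to 8.42 times, a set chosen after the values were seen. All 23 were also higher in replicate 2 than in replicate 1 of diploid seeds, which was true of 73 of the other 142 members. Summed over the 23 genes, RPKM was 2.15 and 10.7 in diploid, 83.6 and 30.6 in triploid, 20.9 and 21.5 in triploid *adm-2*, 7.10 and 4.95 in *suvh7-1* and 11.2 and 7.39 in *peg2* seeds. Without replicate 1 of triploid seeds only 1 of the 23 still met the rule, while 138 of the other 142 did. Without replicate 2 all 23 met it, but only 71 of the 142. These counts follow largely from how the 23 were split off. The rule uses the triploid mean, which for the 23 falls without replicate 1 and rises without replicate 2.

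Among the 23 are *VGD1*, a pectin methylesterase of pollen tube growth, its relatives *VGDH1* and *VGDH2*, *BCP1*, *AGP40* and AT1G29140, a member of the pollen Ole e 1 allergen family, examples picked after the values were seen. Of 33 listed pollen and pollen tube markers, 2 (*VGD1* and *VGDH1*) are members. Summed over the list, RPKM was 40.6 and 47.4 in diploid, 70.4 and 62.0 in triploid, 56.2 and 53.5 in *adm-2*, 41.0 and 39.5 in *suvh7-1* and 47.3 and 44.1 in *peg2* seeds. In 20 of the 33 genes replicate 1 of triploid seeds was above replicate 2, the sperm cell regulator *DUO1* was listed at 0 in every library, and the H+-ATPase gene *AHA6* was at 0 in most. While the sum rose in triploid seeds, some listed genes went the other way. Among them, *HAP2* went from 0.509 and 0.594 in diploid to 0.133 and 0.170 in triploid seeds. *GEX2* went from 1.26 and 0.880 to 0.428 and 0.341, and *RALF4* from 2.39 and 3.28 to 1.30 and 1.05. The tubulin gene *TUA1* alone contributed 20.9 to 32.0 to these sums. In 23 of the 33 genes both *peg2* libraries lay below both triploid libraries, as in 19.7% of all genes tested and 29.2% of the other raised genes. The *suvh7-1* mean was at most 0.5 times the triploid mean in 15 genes, the *adm-2* mean in 2. For these limits on the means, shares of all genes were not counted. The part that pollen or pollen tube RNA has in these members was not tested. Results are therefore given for the 23 and the other 142 members where they differ.

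Summed over the 10 endosperm markers, RPKM was 47.7 and 51.9 in diploid, 190 and 202 in triploid, 181 and 182 in *adm-2*, 142 and 138 in *suvh7-1* and 160 and 156 in *peg2* seeds. In the triploid groups *PHE1* carried most of this sum, with 0.909 and 0.749 in diploid and 133 and 135 in triploid seeds, whereas *ZOU* went from 17.3 and 18.6 to 7.05 and 7.53 and *ALE1* from 24.6 and 27.0 to 8.21 and 8.88. The 12 embryo markers were at 260 and 268 in diploid, 168 and 165 in triploid, 204 and 213 in *adm-2*, 208 and 227 in *suvh7-1* and 144 and 168 in *peg2* seeds. The 10 seed coat markers summed to between 1750 and 1963 in all libraries, with *MUM4* as the largest part at 563 to 875. Single markers moved within this sum. *TT12* went from 6.00 and 7.75 in diploid to 13.8 and 20.5 in triploid seeds, and *MUM2* from 86.2 and 93.3 to 60.3 and 44.5. The part that endosperm, embryo and seed coat have in the values of the members was not tested.

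**Figure D1:**
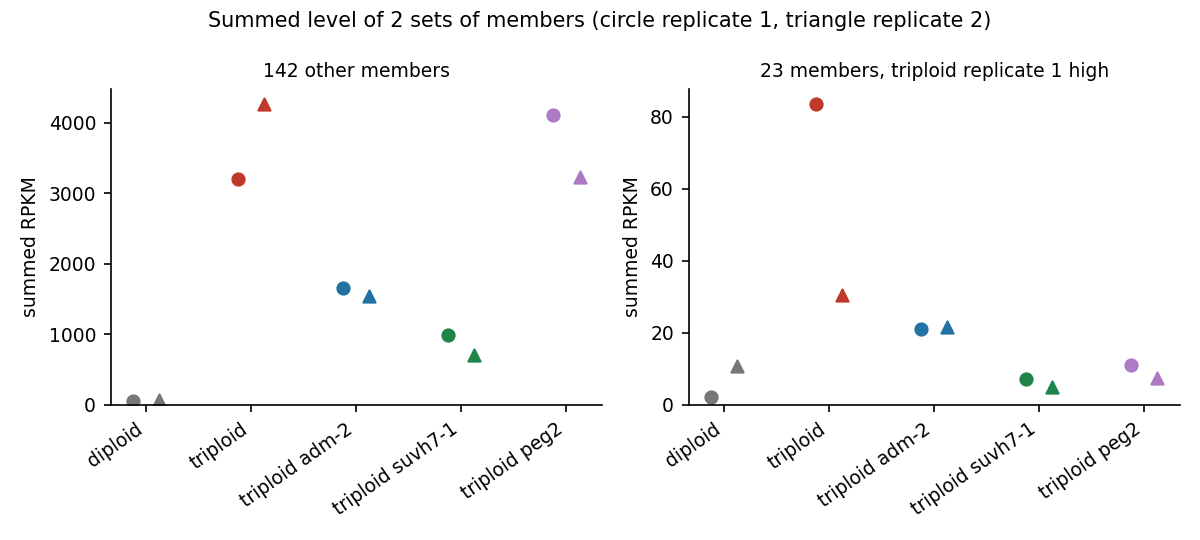
Summed RPKM of the 142 other members (left) and of the 23 members that were at least 1.5 times higher in triploid replicate 1 (right), with 1 point for each library and both axes starting at 0. The 142 genes summed to 3206 and 4271 in triploid and 4106 and 3237 in *peg2* seeds, whereas the 23 genes summed to 83.6 and 30.6 in triploid and 11.2 and 7.39 in *peg2* seeds.

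Of 6 motifs searched around the start of the members, each on either strand, the W-box, TTGACC or TTGACT, differed most in percentage points from its share in all genes tested. W-boxes are the sites that WRKY transcription factors are known to bind. To show them, the 150 bases before the annotated start of the 8 most abundant members with at least 2 W-boxes in that stretch are printed, a choice made after the values were seen, and after them those of 2 abundant members with none. Sequences are 5′ to 3′ on the strand of the gene, read from the RefSeq copy of TAIR10.1, with W-boxes in capitals.
BXL3 (AT5G09730), chr5:3018343-3018492, minus strand: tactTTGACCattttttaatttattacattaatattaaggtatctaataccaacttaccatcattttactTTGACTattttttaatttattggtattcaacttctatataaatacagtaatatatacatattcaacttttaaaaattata
AT5G24316, chr5:8279970-8280119, minus strand: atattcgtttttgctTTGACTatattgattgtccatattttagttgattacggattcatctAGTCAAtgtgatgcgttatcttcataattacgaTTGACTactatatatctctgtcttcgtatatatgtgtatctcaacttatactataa
AT1G14455, chr1:4948401-4948550, minus strand: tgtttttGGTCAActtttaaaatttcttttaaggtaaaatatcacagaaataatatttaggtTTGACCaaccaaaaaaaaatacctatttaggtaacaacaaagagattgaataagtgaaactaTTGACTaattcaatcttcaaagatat
AT3G17150, chr3:5847108-5847257, plus strand: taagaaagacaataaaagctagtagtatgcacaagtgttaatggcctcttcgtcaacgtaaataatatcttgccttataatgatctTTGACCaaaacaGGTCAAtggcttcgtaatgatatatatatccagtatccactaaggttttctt
AT1G58055, chr1:21488566-21488715, plus strand: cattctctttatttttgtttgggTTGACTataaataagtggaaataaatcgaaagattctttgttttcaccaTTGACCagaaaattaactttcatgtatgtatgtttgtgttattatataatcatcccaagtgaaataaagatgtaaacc
AT3G27425, chr3:10150843-10150992, plus strand: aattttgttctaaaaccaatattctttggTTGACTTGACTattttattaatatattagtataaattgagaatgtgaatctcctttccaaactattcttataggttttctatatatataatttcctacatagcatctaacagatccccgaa
LCR24 (AT4G29285), chr4:14431376-14431525, plus strand: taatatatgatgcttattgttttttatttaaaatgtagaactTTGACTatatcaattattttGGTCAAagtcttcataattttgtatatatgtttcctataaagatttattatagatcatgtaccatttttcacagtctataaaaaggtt
AT2G25185, chr2:10731406-10731555, plus strand: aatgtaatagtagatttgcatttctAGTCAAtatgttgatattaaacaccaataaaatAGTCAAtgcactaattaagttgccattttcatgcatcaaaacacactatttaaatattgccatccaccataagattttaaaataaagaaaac
AT4G20800, chr4:11139459-11139608, plus strand: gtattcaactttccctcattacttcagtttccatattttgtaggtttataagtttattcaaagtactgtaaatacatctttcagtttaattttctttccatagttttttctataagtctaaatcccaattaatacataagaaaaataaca
CLE8 (AT1G67775), chr1:25411697-25411846, minus strand: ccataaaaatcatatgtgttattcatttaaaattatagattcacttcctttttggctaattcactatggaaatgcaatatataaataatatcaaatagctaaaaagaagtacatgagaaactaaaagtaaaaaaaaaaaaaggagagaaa
*BXL3* encodes a beta-xylosidase, an enzyme of cell wall polysaccharides, AT5G24316 a proline-rich protein, AT3G17150 an inhibitor of invertase or pectin methylesterase, and AT3G27425, *LCR24*, AT1G58055 and AT2G25185 are CRPs. In AT3G27425 a pair of W-boxes overlaps by 1 base. A match of letters is not a measured binding site.

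In windows of 300 bases, 250 before to 50 after the annotated start, 97 of 161 protein-coding members (60.2%) held a W-box. The share was 37.4% of 837 other raised genes, 32.6% of all 24391 protein-coding genes tested, and 28.03% of 717 genes at 0.25 times the diploid value or less in triploid seeds. At least 2 W-boxes stood in 31.1% of members, 13.0% of other raised genes and 7.86% of all genes. The median GC content of the windows was 28.3% for members and for other raised genes and 32.0% for all genes. The raised genes that are no members differed by the mutant in which they were low. Of those at or under 0.5 in *suvh7-1* only, 52.8% of 271 held a W-box, of those lowered in *adm-2* only 38.7% of 31, and of those over the limit in both 29.5% of 535. Among the members, the share was 43.5% for the 23 high in triploid replicate 1 and 63.0% for the 138 other protein-coding members. The 160 W-boxes within 250 bases upstream had a median distance of 125.5 bases from the start, and 87 of them lay at over 100 and up to 200 bases.

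**Figure D2:**
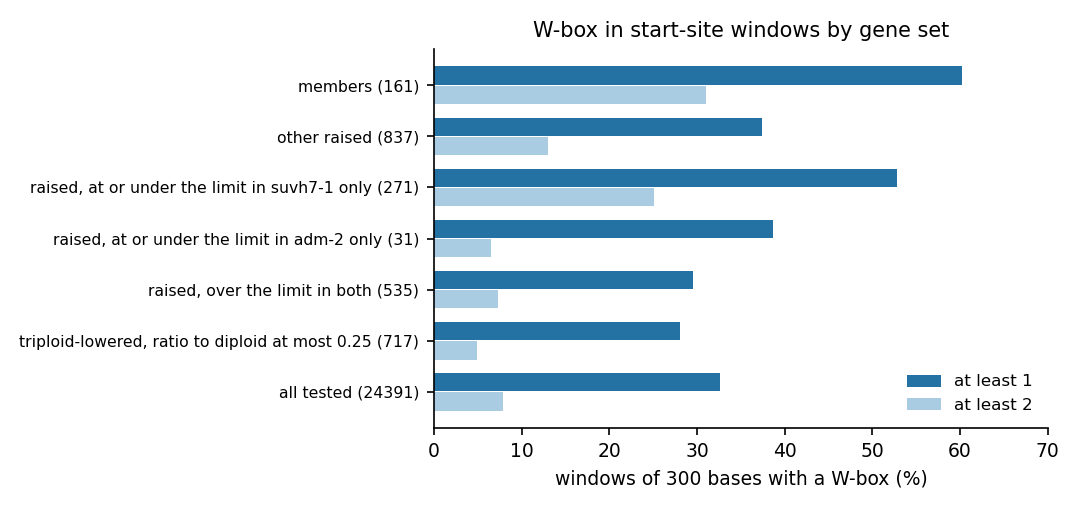
Share of protein-coding genes with at least 1 (dark) and at least 2 (pale) W-boxes in the 300-base window around the annotated start, in percent, with the number of windows in brackets. Members had the highest share, 60.2%, followed by genes lowered in *suvh7-1* only with 52.8%, and genes over the limit in both mutants were at 29.5%.

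The other motifs were rarer. The CArG box, to which MADS-box factors bind, was in 4.35% of members and 3.17% of all genes, the RY motif CATGCA in 8.70% and 9.34%, the prolamin box TGTAAAG in 5.59% and 5.27%, and the telo box AAACCCT in 9.32% and 9.85%. The G-box CACGTG was in 1.86% of members and 8.12% of all genes, a larger gap than that of the W-box when taken as a ratio. Windows depend on the annotation, and in 40 of 161 members the annotated start is the first coding base, against 9.51% of all genes. The W-box share was 66.1% in the 121 members with bases before the coding start and 42.5% in those 40, with 32.9% and 29.7% among all genes tested.

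In triploid seeds the members ranged from a mean RPKM of 1.04 to 355, with a median of 4.82. A mean of at least 10 was reached by 62 members, of at least 100 by 9, and 35 lay under 2. In diploid seeds 157 of the 165 were under 1 and 21 were listed at 0 in both libraries. Together the members made up 0.00893% and 0.0112% of the summed RPKM of diploid seeds and 0.451% and 0.590% in triploid, 0.230% and 0.214% in *adm-2*, 0.140% and 0.0975% in *suvh7-1* and 0.562% and 0.436% in *peg2* seeds. As the rule used the first 4 groups, their differences describe the choice and were not tested. The ratio of triploid to diploid seeds had a median of 24.3 and ranged from 4.02 to 459. By limma (adjusted p under 0.05 and a log2 fold change past 1), 164 of the 165 were called higher in triploid than in diploid seeds, 74 lower in *adm-2* and 143 lower in *suvh7-1* than in triploid seeds, counts that follow from the rule. Among all 26601 genes tested the calls in the same direction were 9.53%, 0.722% and 2.82%.

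Several of the most abundant members belong to families of small secreted proteins. The highest was *SCRL10*, a relative of the S-locus cysteine-rich pollen ligands, located at chr4:8963041-8963583 (TAIR10.1). It has 2 exons and 107 codons, the stop not counted. Its RPKM was 0.811 and 1.13 in diploid, 292 and 419 in triploid, 157 and 161 in triploid *adm-2*, 91.1 and 51.8 in triploid *suvh7-1* and 428 and 312 in triploid *peg2* seeds. The mutant and triploid libraries did not overlap in *adm-2* and *suvh7-1*, and those of *peg2* overlapped the triploid values.

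Counted by words in the annotation, CRPs made up 37 of the 165 members, 22.4%, against 13.0% of the other raised genes and 2.26% of all genes tested. These words leave out other members rich in cysteine, such as AT2G04034 with 12 cysteine codons of 92 and AT1G10745 with 9 of 82. The 37 comprised 6 ECA1-like proteins, relatives of egg cell secreted peptides, 11 defensin-like proteins, 6 of the low-molecular-weight cysteine-rich (*LCR*) type, 2 SCR-like proteins, 9 of the self-incompatibility protein S1 type, and a thionin, a RALF-like and a lipid-transfer type protein. A mean of at least 10 RPKM was reached by 20 of the 37. Their ratio to triploid seeds ranged from 0.141 to 0.484 for *adm-2* (median 0.419) and from 0.0534 to 0.464 for *suvh7-1* (median 0.212). In *peg2*, which the rule did not use, the ratio ran from 0.161 to 1.41 with a median of 0.900.

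A tandem array of 4 ECA1-like genes on chromosome 3, from 114260 to 122480, held the second and the sixth most abundant members. AT3G01329 was at an RPKM of 1.02 and 0.551 in diploid, 227 and 318 in triploid, 129 and 113 in triploid *adm-2*, 56.9 and 55.2 in triploid *suvh7-1* and 334 and 232 in triploid *peg2* seeds. Its neighbour AT3G01327 was at 0.356 and 0.675 in diploid, 144 and 187 in triploid, 72.4 and 67.4 in triploid *adm-2*, 45.8 and 43.5 in triploid *suvh7-1* and 179 and 119 in triploid *peg2* seeds. The other two copies were lower, AT3G01324 with 23.1 and 33.0 and AT3G01322 with 4.33 and 3.35 in triploid seeds. Among the triploid groups, all 4 had their lowest value in a *suvh7-1* library, and only AT3G01322 had its *peg2* libraries below both triploid ones. The unlinked ECA1 gene AT5G15000 had the largest rise among the members, 459 times, with 0.143 and 0 in diploid, 71.2 and 85.9 in triploid, 37.4 and 38.3 in triploid *adm-2*, 16.5 and 10.12 in triploid *suvh7-1* and 107 and 96.8 in triploid *peg2* seeds. Here the *peg2* libraries were above both triploid libraries.

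Of the defensin-like and *LCR* genes, AT5G42223 was at 0.222 and 0 in diploid, 60.3 and 84.7 in triploid, 33.6 and 29.6 in triploid *adm-2*, 22.5 and 17.7 in triploid *suvh7-1* and 87.3 and 64.6 in triploid *peg2* seeds. *LCR36* reached 53.2 and 88.5 in triploid and 12.2 and 4.62 in *suvh7-1* seeds, a ratio of 0.120. AT1G58055, whose upstream W-boxes are shown above, was at 51.6 and 87.7 in triploid, 33.5 and 28.7 in *adm-2*, 16.2 and 17.9 in *suvh7-1* and 62.4 and 38.3 in *peg2* seeds. Replicate 2 of triploid seeds and replicate 1 of *peg2* seeds were the higher libraries for all 3 genes. AT1G73550, of the lipid-transfer and 2S albumin type, was already at 4.23 and 3.998 RPKM in diploid seeds and reached 39.2 and 49.0 in triploid seeds.

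Of 602 CRP genes tested, members included, limma called 223 up and 56 down in triploid against diploid seeds, where 9.53% of all genes were up and 9.94% down. In *adm-2* against triploid seeds 24 were up and 27 down, beside 2.67% and 0.722% of all genes. In *suvh7-1* 28 were up and 101 down, beside 2.15% and 2.82%, and in *peg2* 2 were up and 4 down, beside 0.0677% and 0.139%. The median log2 fold change of the family in *suvh7-1* was -0.17, that of all genes tested -0.04. As members are included, the counts up in triploid seeds and down in *adm-2* and *suvh7-1* follow in part from the rule.

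Signalling peptides that the annotation words did not count as CRPs were also among the members. *CLE8*, a CLAVATA3/ESR-related peptide known from the young embryo and endosperm, was at 0.918 and 0.757 in diploid, 145 and 158 in triploid, 74.6 and 76.7 in triploid *adm-2*, 62.5 and 47.1 in triploid *suvh7-1* and 179.7 and 158 in triploid *peg2* seeds. No mutant library of *adm-2* or *suvh7-1* overlapped the triploid ones, and the gene stood at the edge of the rule with a ratio of 0.499 in *adm-2*. AT1G10717 and AT2G16225 are annotated as EMBRYO SURROUNDING FACTOR-like, a type of peptide known to act from endosperm on the embryo's suspensor. AT1G10717 was at 0.155 and 0.112 in diploid, 22.3 and 36.3 in triploid, 10.7 and 10.0 in triploid *adm-2*, 14.1 and 11.8 in triploid *suvh7-1* and 31.5 and 29.2 in triploid *peg2* seeds. It is 1 of the 8 members higher in *suvh7-1* than in *adm-2*. *PROPEP2*, precursor of an elicitor peptide, lay at 2.36 and 2.99 in triploid and 0.125 and 0 in *suvh7-1* seeds.

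Of the 12 most abundant members, AT1G56233, AT2G04034 and AT1G14455 have no role given here. AT1G56233 was at 112 and 171 in triploid, 70.1 and 57.5 in *adm-2*, 33.6 and 19.2 in *suvh7-1* and 167 and 97.7 in *peg2* seeds. AT2G04034, annotated as a putative membrane lipoprotein, was at 81.8 and 119, 51.8 and 40.9, 32.3 and 28.2 and 102 and 74.7 in the same order. AT1G14455, an uncharacterized protein that overlaps another gene on the opposite strand, was at 49.8 and 95.8, 20.5 and 18.2, 14.5 and 8.15 and 67.4 and 45.7. All 3 were lower in every *adm-2* and *suvh7-1* library than in the triploid libraries.

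Some members with products that act on cell walls or resemble such proteins, picked as examples, follow. *BXL3* was at an RPKM of 6.06 and 6.74 in diploid, 198 and 231 in triploid, 101.4 and 100.4 in triploid *adm-2*, 74.6 and 38.7 in triploid *suvh7-1* and 275 and 265 in triploid *peg2* seeds. AT4G33830 and AT4G33840, neighbouring genes of the glycosyl hydrolase family 10, were both raised in triploid seeds. AT4G33830 had 38.1 and 38.3 in triploid and 55.5 and 56.4 in *peg2* seeds, and AT4G33840 had 30.2 and 35.2 and 44.1 and 38.9. For both genes every *peg2* library was above every triploid library. AT4G20800, a berberine-type FAD oxidase, had 167 and 173 in triploid, 83.5 and 76.5 in *adm-2* and 59.5 and 31.8 in *suvh7-1* seeds. The expansin gene *EXPB4* was at 8.98 and 9.31 in triploid and 1.68 and 0.417 in *suvh7-1* seeds. AT5G24316, the fourth most abundant member, already had 20.7 and 22.0 in diploid seeds and 169.8 and 214 in triploid seeds. It overlaps AT5G24314 on the opposite strand, so reads of the pair cannot be told apart if strand was not used, which is not stated.

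Invertase and pectin methylesterase inhibitors numbered 13 members, 7.88% against 0.376% of all genes tested. Polygalacturonases and other pectin lyase-like genes numbered 5, 3.03% against 0.353%. The class of inhibitors is named by the annotation and includes *VGD1* and *VGDH1*, which are pectin methylesterases. It thus mixes enzymes with inhibitors, and the next count of pectin methylesterases leaves out those annotated in this class. No pectate lyase (0 of 6 tested) and no gene annotated as pectin methylesterase only (0 of 16) met the rule. These groups are too small for 0 members to show scarcity, as 165 of 26601 genes tested were members. Of the 6 pectate lyases 2 were raised, and limma called 4 up in triploid seeds and 4 down in *suvh7-1*, beside 9.53% and 2.82% of all genes. Of the 13 inhibitor-type members 5 were in the set high in triploid replicate 1, and of the 5 pectin lyase-like members 4 were. The exception, AT4G32380, was at 0.216 and 0.248 in diploid, 21.4 and 32.5 in triploid, 11.2 and 13.6 in triploid *adm-2*, 6.11 and 1.63 in triploid *suvh7-1* and 47.8 and 38.2 in triploid *peg2* seeds, with both *peg2* libraries above the triploid ones. AT3G07850 and AT3G14040, which are 95.67% identical over 1663 bases and may share reads, had similar values. AT3G07850 was at 4.77 and 0.851 in triploid, 0.531 and 0.667 in *adm-2* and 0.501 and 0.360 in *peg2* seeds. AT3G14040 was at 3.71 and 0.770, 0.580 and 0.658 and 0.296 and 0.126 in the same groups. Replicate 2 of triploid seeds was much closer to the *adm-2* libraries than to replicate 1.

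*VGD1* illustrates the set high in triploid replicate 1, with 0.153 and 1.11 in diploid, 9.42 and 2.91 in triploid, 2.84 and 2.46 in triploid *adm-2*, 0.898 and 0.564 in triploid *suvh7-1* and 0.950 and 0.445 in triploid *peg2* seeds. Replicate 1 was 3.16 times replicate 2, which lay just above the *adm-2* libraries. Its neighbour *VGDH1* was at 5.30 and 2.00 in triploid and 1.80 and 1.498 in *adm-2* seeds. The abundant inhibitor genes did not share this pattern. AT5G50070 was at 44.1 and 53.5 in triploid and 43.3 and 45.4 in *peg2* seeds, AT1G11593 at 40.7 and 47.7 and 36.7 and 28.4, and AT1G56620 at 24.2 and 30.7 and 22.9 and 22.3.

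In all, limma called 41 of 100 inhibitor-type genes tested up and 7 down in triploid seeds, 4 up and 8 down in *adm-2*, 4 up and 30 down in *suvh7-1*, and 0 up and 2 down in *peg2*. The 94 pectin lyase-like genes gave 24 up and 16 down in triploid seeds, 5 up and 2 down in *adm-2*, 6 up and 12 down in *suvh7-1*, and 0 in either direction in *peg2*. Members are included in these counts, which therefore follow in part from the rule except in *peg2*, and the shares of all genes stand with the CRPs above.

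Of 16 listed *PEGs*, *ADM* included, 5 were members. *PEG2* was at 0 and 0.0151 in diploid, 3.54 and 4.10 in triploid, 1.34 and 0.908 in triploid *adm-2*, 0.646 and 0.605 in triploid *suvh7-1* and 0.238 and 0.0808 in triploid *peg2* seeds. The low *peg2* values are those of the mutated gene, but the gene was also below its triploid libraries in *adm-2* and *suvh7-1* seeds. *PEG9*, a galactose mutarotase-like protein, was at 0.106 and 0.211 in diploid, 1.095 and 1.26 in triploid, 0.425 and 0.534 in triploid *adm-2*, 0.194 and 0.0904 in triploid *suvh7-1* and 0.472 and 0.236 in triploid *peg2* seeds. *YUC10*, an enzyme of auxin biosynthesis in the endosperm, started from 2.26 and 2.12 in diploid seeds, reached 11.2 and 12.7 in triploid seeds and was at 6.25 and 5.08 in *adm-2* and 4.67 and 5.36 in *suvh7-1* seeds. *HDG10*, a homeodomain leucine zipper factor, was at 0.0129 and 0.0140 in diploid, 4.42 and 5.06 in triploid, 1.84 and 2.20 in *adm-2* and 1.24 and 1.01 in *suvh7-1* seeds. In *peg2* seeds all 5 had both libraries below both triploid libraries except *ADM*, which had 2.82 and 2.23 against 2.42 and 4.01.

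Genes annotated with transcription factor terms made up 7 members, 4.24% against 5.27% of all genes tested. Besides these, 3 MADS-box genes of type I, a class active in the central cell and endosperm, were members. MADS-box genes made up 1.82% of the members, against 0.395% of all genes tested and 2.30% of the other raised genes. *AGL58* was at 0 and 0 in diploid, 3.85 and 9.11 in triploid, 1.31 and 0.981 in triploid *adm-2*, 0.425 and 0.130 in triploid *suvh7-1* and 6.27 and 3.65 in triploid *peg2* seeds. *AGL57* had 1.11 and 2.60 and *AGL29* 1.06 and 1.097 in triploid seeds, and both were under 0.5 in all *suvh7-1* libraries. The value of *AGL57* is uncertain, as it shares a near-identical stretch with AT2G11990. Of 105 MADS-box genes tested, members included, 38 were up and 5 down in triploid seeds, 2 up and 3 down in *adm-2*, 1 up and 13 down in *suvh7-1* and 0 in either direction in *peg2*. Of all genes, 9.53% were up and 9.94% down in triploid seeds and 2.67% and 0.722% in *adm-2*. In *suvh7-1* the shares were 2.15% and 2.82%, and in *peg2* 0.0677% and 0.139%. Nutrient carriers among the members were the amino acid permease gene *AAP8*, with 19.2 and 20.8 in triploid and 7.36 and 6.31 in *adm-2* seeds, *LHT2*, *COPT6* and AT3G43660. F-box genes, 164 of 521 of which were up in triploid seeds (9.53% of all genes were), gave 5 members. That is 3.03% of the members, against 8.51% of the other raised genes and 1.96% of all genes tested. No cytochrome P450 and no transposon-like gene (0 of 212 and 0 of 30 tested) met the rule. As 165 of 26601 genes tested were members, 0 in groups of this size does not show that these families are scarce.

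**Figure D3:**
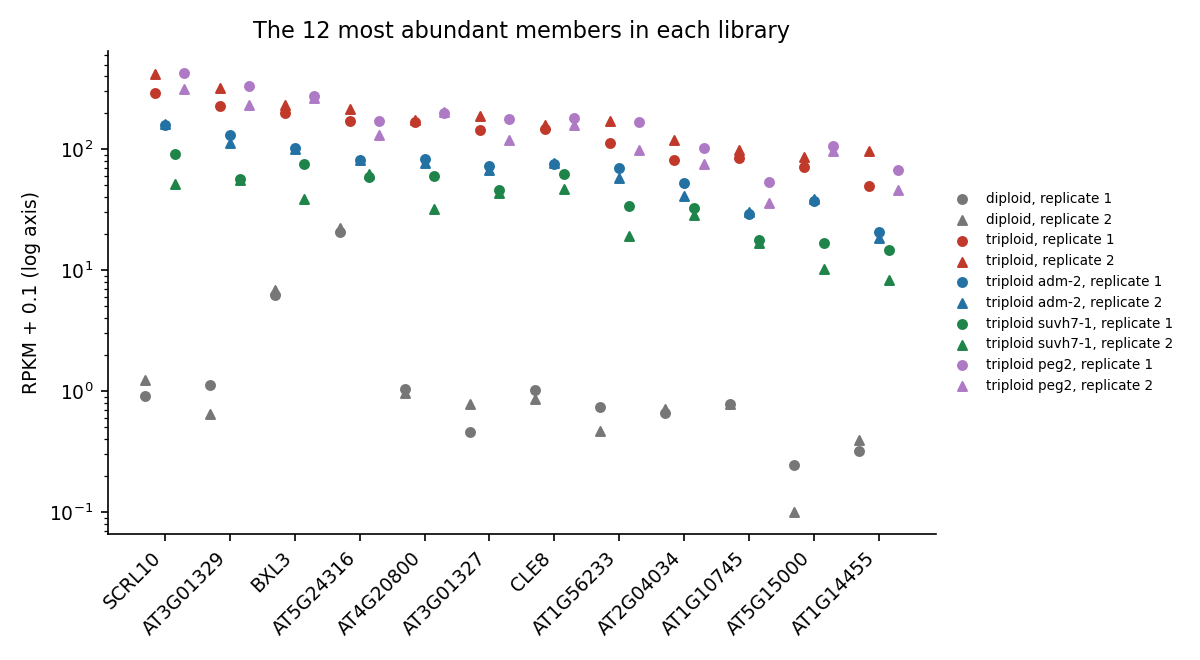
RPKM plus 0.1 of the 12 most abundant members in each of the 10 libraries on a log axis, with circles for replicate 1 and triangles for replicate 2. In all 12 genes the *adm-2* and *suvh7-1* libraries lie between the diploid and the triploid ones, and *peg2* libraries lie near the triploid ones except for AT1G10745, which had 53.01 and 35.5 in *peg2* against 83.5 and 97.3 in triploid seeds.

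The ratios of the members differed between the mutants. For *adm-2* the ratio to triploid seeds (median 0.428) ran from 0.0911 to 0.4996, with most of the 165 between 0.4 and the limit of 0.5 and 10 at 0.25 or less. In *suvh7-1* the median was 0.189, the range 0.0191 to 0.486, with 6 over 0.4 and 122 at 0.25 or less. The medians of the 870 other raised genes were 0.894 and 0.649. Just inside the limit were *LAC14*, a laccase, at 0.496, *CLE8* at 0.499 and AT2G36695 at 0.4996, all in *adm-2*. Just outside were AT1G04778 at 0.5001 in *suvh7-1* and, in *adm-2*, *PGA4*, a polygalacturonase, at 0.502 and *AGL59* at 0.502, and 63 genes met the rule with a limit of 0.4 and 298 with a limit of 0.6.

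Comparing the mutants directly, 157 of the 165 members had a lower mean in *suvh7-1* than in *adm-2* seeds and 8 a higher one. The median log2 fold change of *suvh7-1* against *adm-2* was -1.15, that of the other raised genes -0.53 and that of all genes tested -0.13. All 4 libraries entered the rule, so these values and the calls below describe the members that it chose and are no test of them. Limma called 48 members lower in *suvh7-1*, 29.1%, beside 3.51% of all genes and 20.0% of the other raised genes. No member (0 by limma and by the rank product, 1 at an unadjusted p under 0.05) was called higher, against 0.372% of all genes. In 141 members both *suvh7-1* libraries lay below both *adm-2* libraries, which was also so for 46.2% of all genes. The calls rest on few libraries. Without replicate 1 or without replicate 2 of *adm-2* 0 members were called, with 71 and 86 members lower at an unadjusted p under 0.05, and without replicate 2 of *suvh7-1* 18 were called. A fit of these 2 groups alone called 0, with 87 at an unadjusted p under 0.05, beside 8823 of 26601 genes in either direction. The rank product called 5 members lower, beside 0.132% of all genes.

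The largest log2 differences, given as values only, were those of AT1G66852, AT3G17140 and AT2G26865. AT1G66852, with a carbohydrate-binding X8 domain, was at 0 and 0 in diploid, 3.76 and 4.46 in triploid, 1.35 and 1.59 in triploid *adm-2*, 0 and 0.109 in triploid *suvh7-1* and 4.001 and 3.21 in triploid *peg2* seeds. Its log2 fold change of *suvh7-1* against *adm-2* was -3.44, that of AT3G17140 -3.41 and that of AT2G26865, an uncharacterized protein, -3.25. Their order depends on the pseudocount, since values near 0 enter, and with a pseudocount of 1 they were -1.23, -1.88 and -1.06. In the opposite direction stood *ADM*, AT5G12060 and AT1G10717. *ADM*, low in *adm-2* through its own mutation, had a log2 difference of 1.27. AT5G12060, of the self-incompatibility protein S1 type, was at 7.75 and 14.6 in triploid, 1.72 and 1.25 in *adm-2* and 2.86 and 1.72 in *suvh7-1* seeds, a difference of 0.57.

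**Figure D4:**
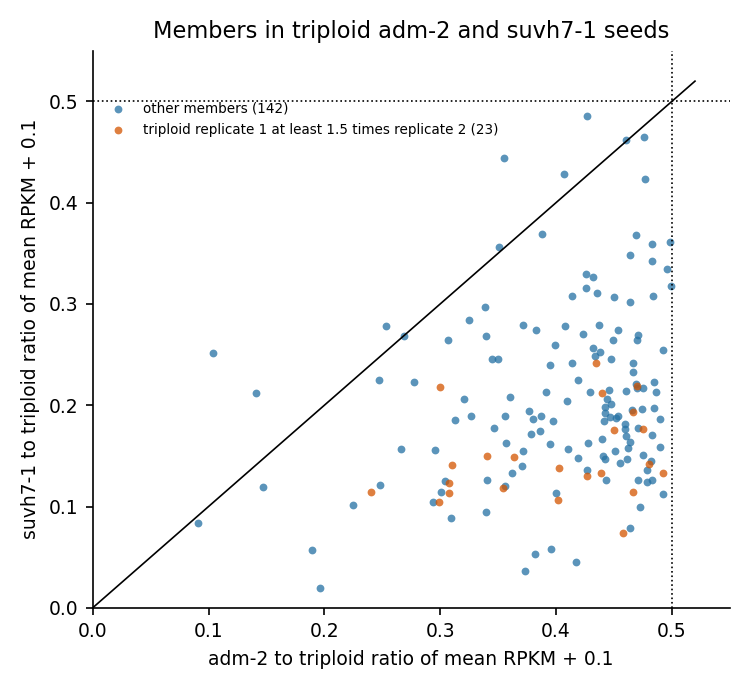
Ratio of triploid *adm-2* to triploid seeds (horizontal axis) and of triploid *suvh7-1* to triploid seeds (vertical axis) for the 165 members, each from means of 2 libraries plus 0.1. Dotted lines mark the limit of 0.5 and the solid line equal ratios, and 157 points lie below the solid line.

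Most members stayed above the diploid level in both mutants. In *adm-2* seeds 160 of the 165 had both libraries above both diploid libraries, in *suvh7-1* seeds 121 and in *peg2* seeds 140. The shares of members, 97.0%, 73.3% and 84.8%, stood beside 99.5%, 94.5% and 96.0% of the other raised genes and 40.8%, 24.4% and 31.4% of all genes tested. The rule used the diploid, *adm-2* and *suvh7-1* values. A mean under 1 RPKM was found for 59 members in *adm-2* and for 91 in *suvh7-1* seeds.

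The *peg2* libraries are the only ones the rule did not use, although the triploid libraries they are compared with were used. The ratio of *peg2* to triploid seeds had a median of 0.850, with 85 members between 0.8 and 1.25, 13 above that, 30 between 0.5 and 0.8, and 37 at 0.5 or less. The median log2 fold change was -0.21, against 0.00 for the other raised genes and -0.02 for all genes tested, and without replicate 2 of triploid seeds it was 0.02. Limma called 2 members lower, 1.21% against 0.139% of all genes. None was called higher (0 by limma and by the rank product), against 0.0677% of all genes. At an unadjusted p under 0.05 in limma, 46 members were lower and 0 higher, beside 2296 of 26601 genes in either direction. Both *peg2* libraries lay below both triploid libraries in 63 members, 38.2% against 19.7% of all genes and 29.2% of the other raised genes. They lay above in 14, 8.48% against 12.1% of all genes and 26.8% of the other raised genes. The rank product called 16 members lower, beside 0.259% of all genes. Of these 16, 11 are among the 23 high in triploid replicate 1, a library that also enters this comparison.

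The members at 0.5 or less in *peg2* were mostly that set. Of the 23, 22 were at or below 0.5, with a median of 0.182, whereas 15 of the other 142 were, with a median of 0.901. Replicate 1 of triploid seeds defines the 23 and also enters the triploid mean of this ratio. Their low ratios therefore follow in part from the split. The median RPKM of the 23 was 3.09 and 1.09 in the triploid libraries and 0.349 and 0.261 in the *peg2* libraries. Among the 15, *PEG2* itself had a log2 fold change of -3.98 (standard error 0.32, limma adjusted p = 0.00301), as the mutated gene.

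The other called gene was AT3G17140, at chr3:5846002-5846589, an inhibitor-type gene of 2 exons. It was at 0 and 0.0452 in diploid, 16.6 and 21.8 in triploid, 4.07 and 3.28 in triploid *adm-2*, 0.377 and 0.160 in triploid *suvh7-1* and 1.83 and 1.75 in triploid *peg2* seeds. In every mutant both libraries were far below both triploid libraries. The log2 fold change in *peg2* was -3.34 (standard error 0.32, limma adjusted p = 0.00798), with an adjusted p of 0.0596 to 0.0925 when any of the 4 libraries compared was left out. Its neighbours of the same annotation, AT3G17150 and AT3G17152, within 5846002 to 5849660 on chromosome 3, did not follow it in *peg2*. AT3G17150 was at 0.441 and 0.407 in diploid, 61.6 and 81.5 in triploid, 35.1 and 29.3 in triploid *adm-2*, 14.9 and 7.12 in triploid *suvh7-1* and 86.7 and 70.7 in triploid *peg2* seeds. AT3G17152 was at 4.07 and 5.63 in triploid and 5.44 and 3.67 in *peg2* seeds.

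Further low members in *peg2* with at least 5 RPKM in triploid seeds were *VGD1*, AT1G10745, AT3G59480 and AT1G02405. AT1G10745, annotated as a maternally expressed family protein, was at 0.681 and 0.678 in diploid, 83.5 and 97.3 in triploid, 29.1 and 29.9 in triploid *adm-2*, 17.6 and 16.5 in triploid *suvh7-1* and 53.01 and 35.5 in triploid *peg2* seeds, with a log2 fold change in *peg2* of -1.05 (adjusted p = 0.0698 by limma). AT3G59480, a pfkB-type sugar kinase, had 15.4 and 20.2 in triploid and 8.63 and 8.60 in *peg2* seeds (adjusted p = 0.0913). Libraries did not overlap for either gene, but neither passed the threshold. AT1G02405, a proline-rich protein, was at 9.28 and 10.8 and 5.57 and 5.05.

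The members highest in *peg2* relative to triploid seeds were AT4G32380, AT1G61688, AT4G33830, AT1G44130 and AT1G24062, with log2 fold changes of 0.69, 0.58, 0.55, 0.53 and 0.51. None passed the test, with adjusted p of 0.711 to 0.903. AT1G44130, an aspartyl protease, was at 20.3 and 25.8 in triploid and 34.1 and 32.0 in *peg2* seeds. AT1G61688, a defensin-like gene, varied widely, with 3.84 and 11.8 in triploid and 13.5 and 7.64 in *peg2* seeds, and its difference turned negative without replicate 1 of triploid seeds.

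**Figure D5:**
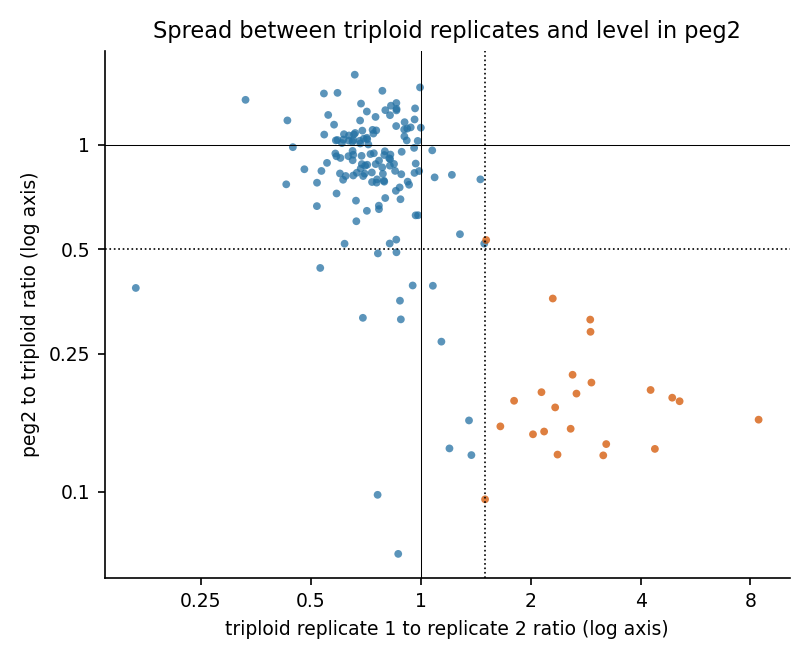
Ratio of replicate 1 to replicate 2 of triploid seeds (horizontal, log axis) and of *peg2* to triploid seeds (vertical, log axis) for the 165 members, all from RPKM plus 0.1, with dotted lines at 1.5 and 0.5. Of the 23 members at 1.5 or more, in orange, 22 lie at or below 0.5 in *peg2*, against 15 of the other 142, in blue. Both axes use replicate 1 of triploid seeds, so a link between them is in part built in.

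The members were short genes. Coding sequences of the 161 protein-coding members had a median of 172 codons, the stop not counted. The median was 272 for the other raised genes and 366 for all genes tested. Under 120 codons were found in 37.3% of members, against 18.5% and 8.25%. Cysteine codons took a median of 2.70%, against 2.01% and 1.65%. The median number of exons was 2, as in the other raised genes, and 4 in all genes. The 23 members high in triploid replicate 1 were longer, with a median of 334 codons against 166.5.

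All 5 chromosomes held members, with 27.3% on chromosome 1, 15.8% on 2, 21.8% on 3, 15.8% on 4 and 19.4% on 5, where 26.1%, 16.2%, 19.9%, 15.1% and 22.7% of the genes tested lie. Neighbouring members within 20 kb formed 11 groups with 25 genes. Besides the ECA1-like array and the AT3G17140 group they were pairs, among them *VGD1* with *VGDH1*, the glycosyl hydrolases AT4G33830 and AT4G33840, and the subtilases AT3G46840 and AT3G46850. Genes of a tandem pair may share reads where their sequences are alike. Near-identical stretches of at least 100 bases at 95% were found for 9 members, of which 4 form the pairs AT3G07850 with AT3G14040 and AT5G26692 with AT5G26717. In addition, 17 members, 3 of them among those 9, overlap another annotated gene, 15 of them on the opposite strand, among them AT1G14455, *AGL29*, AT3G59480 and AT1G44130. Values of these genes are uncertain.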

How the data were processed

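RNA of whole seeds was sequenced as 100-bp paired reads (HiSeq2000, TruSeq), and the authors mapped the trimmed reads to TAIR10 with TopHat2 2.0.10 (per the labels), at most 1 alignment per read. The authors deposited RPKM values for 33602 genes. The counting tool, annotation release and use of strand are not given in the sources used here, and counts are unknown, so precision rests on the 2 libraries per group. RPKM was not normalized further. Where nothing says otherwise, ratios use group means plus 0.1.

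Members and lists were chosen with earlier results of these data known. Log2(RPKM + 0.1) of the 26601 genes above 0 in at least 2 libraries was fitted with limma 3.58.1 in R 4.3.3 (lmFit, eBayes with trend, all 5 groups, Benjamini-Hochberg adjustment per contrast). A gene was called at an adjusted p under 0.05 and a log2 fold change past 1, and folds of low genes are understated on this scale. Calls of contrasts that the rule used describe the members only. The study used the rank product, which is an alternative here with 100 permutations. The labels number the libraries of a group 1 and 2, and p-values measure only the spread between them. Replicate numbers were checked for pairing.

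Named members were the 12 most abundant, the 5 lowest and 5 highest in *peg2* among those with at least 5 RPKM in triploid seeds, the 3 with the largest difference each way between *suvh7-1* and *adm-2*, members among the *PEGs*, pectin, MADS-box and CRP genes, and those at the limit of 0.5. Genes outside this rule, chosen after their values were seen, are the examples of other groups and of the 23 genes high in triploid replicate 1. Families were counted by words in the annotation. Of the genes, 32835 matched TAIR10.1, all 165 members included (161 protein-coding, 4 pseudogenes). W-box counts by gene set were added after the values were seen. Near-identical copies were found with blastn 2.17.0. Alternatives were pseudocounts of 1 and 0.01, a mean RPKM of at least 1, size factors, a replicate block, the 2 groups alone, limits of 0.4 and 0.6, and leaving out each library.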

Additional observations from a re-analysis of the deposited data

Results flagged for a closer look

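The values of the members differed between *suvh7-1* and *adm-2* seeds. The membership rule used all 4 of these libraries, so the difference is a description of the chosen genes and not independent of their choice. By limma 48 members had the lower level in *suvh7-1* seeds (adjusted p under 0.05, log2 fold change past 1), 46 of them among the 142 members and 2 among the 23 high in triploid replicate 1, and 3.51% of all genes tested were called in this direction. Leaving out either *adm-2* library left 0 calls, the fit of the 2 groups alone gave 0, and the rank product gave 5.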

How the results depend on the processing

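The number of members, 165, was 71 with a pseudocount of 1, 63 with a limit of 0.4, 298 with a limit of 0.6, and 147 to 236 without single libraries (236 without triploid replicate 1, 139 of them among the 165, and 147 without replicate 2, 94 of them among the 165). Members called lower in *peg2* numbered 2, and 4 with a pseudocount of 1, 1 with 0.01, 0 from the 2 groups alone (33 at an unadjusted p under 0.05), 16 by the rank product and 1 to 3 without single libraries. Members called lower in *suvh7-1* than in *adm-2* numbered 48, and 30 and 28 with pseudocounts of 1 and 0.01, 0 from the 2 groups alone, 5 by the rank product and 0 to 47 without single libraries. Called higher there was 1 with size factors and 0 or 1 without single libraries (*ADM*). The median log2 fold change of the members in *suvh7-1* against *adm-2* was -0.61 with a pseudocount of 1 and -1.46 to -0.77 without single libraries, and in *peg2* against triploid seeds -0.44 to 0.0198 (without triploid replicate 1 and 2, respectively). AT1G61688 in *peg2* was at -0.21 without replicate 1 and 1.38 without replicate 2 of triploid seeds. Among the alternatives for single genes, 282 kept direction and side of the threshold, 16 lost and 6 gained significance and 1 reversed. Pseudocounts change low values by construction, and fewer samples widen errors, but the cause of each change was not tested.

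Nothing in the labels says that replicate numbers mark shared seed pools or days. Same-numbered deviations correlated at -0.17 between triploid and *peg2* and -0.02 between *adm-2* and *suvh7-1* seeds, across genes, and at most at 0.24, between *suvh7-1* and *peg2* seeds, a pair not compared here. With a replicate block 2 members were called lower in *peg2* and 40 lower in *suvh7-1* than in *adm-2*, with medians of -0.21 and -1.15. With the numbers of the *peg2* libraries crossed and those of the other groups kept, an alternative added once the data had been seen, these counts were 2 and 39. Over all genes either block called 21 lower in *peg2* in place of 37.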

Other observations

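Of 64 genes of the WRKY family tested, 2 met the conditions for a rise in triploid seeds and 0 were members. *MINI3* (*WRKY10*), known to promote endosperm growth, stood just outside the rule. It was at an RPKM of 0.0290 and 0 in diploid, 1.69 and 3.65 in triploid, 1.14 and 1.49 in triploid *adm-2*, 0.512 and 0.0619 in triploid *suvh7-1* and 3.14 and 2.40 in triploid *peg2* seeds, with ratios to triploid seeds of 0.510 in *adm-2* and 0.140 in *suvh7-1*. *WRKY68* was at 2.51 and 3.41 in triploid and 6.48 and 6.37 in *adm-2* seeds, higher in the mutant. No relation of these genes to the W-boxes was tested.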
